A study of Mus musculus with 9 samples.

Results

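The metabotropic glutamate receptors are the G-protein-coupled receptors for glutamate, the main excitatory transmitter of the brain. The 6 receptor genes Grm2, Grm3, Grm4, Grm5, Grm7 and Grm8 were taken by gene symbol from the 31053 genes listed in the count matrices and followed across neuron types and glia. Single nuclei were profiled from pooled cortex and hippocampus of male wild-type C57BL/6 mice in 3 groups of 3 mice each (young mice with AAV-EGFP, aged mice with AAV-EGFP and aged mice with AAV-B3GNT3). Young mice were 5 months old and aged mice 19 months old, and every mouse had received an AAV into the retro-orbital sinus 8 weeks earlier. The capsid AAV-PHP.V1 carried either EGFP alone or EGFP joined to B3GNT3, a glycosyltransferase that extends mucin-type O-glycans, under a short claudin-5 promoter meant for brain endothelial cells. All groups therefore carried a vector, no young mouse carried B3GNT3 and no mouse was uninjected. For ageing, the aged mice with AAV-EGFP were compared with the young ones, and for treatment, the aged AAV-B3GNT3 mice were compared with the aged AAV-EGFP mice. Both comparisons use the same 3 aged AAV-EGFP mice, so their results are not independent of each other.

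Grm5 belongs to group I of the family, whose receptors couple to Gq and phospholipase C, sit mostly at the postsynaptic side and bind Homer scaffolds. Grm2 and Grm3 form group II, and Grm4, Grm7 and Grm8 belong to group III. Groups II and III couple to Gi and Go, lower cyclic AMP and mostly restrain transmitter release from presynaptic terminals, and Grm3 is also well known from astrocytes.

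The genes differ widely in size. On build GRCm38, Grm2 spans 12.99 kb on the minus strand (chr9:106643095-106656082) and Grm4 99.02 kb on the minus strand (chr17:27422387-27521403). Grm3 covers 239.6 kb (chr5:9485541-9725170, minus strand). The other 3 are over 500 kb long, with 551 kb for Grm5 (chr7:87584168-88134907, plus strand), 860.1 kb for Grm8 (chr6:27275119-28135178, minus strand) and 922 kb for Grm7 (chr6:110645581-111567230, plus strand). All 6 are protein-coding, and 15 other annotated genes overlap them, of which 2 are listed in the matrices. Nuclear RNA is rich in unspliced transcripts, and whether intronic reads were counted is not given in the sources used here.

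RefSeq promoters of GRCm38.p6, running from 250 bases before to 50 bases after a start site, were at hand for 4 of the 6 genes and are shown for the genes that led in different cell types (Grm2 in dentate granule neurons, Grm3 and Grm7 in pericytes, Grm8 in deep-layer neurons). They lie at chr9:106656060-106656359 for Grm2 (minus strand), chr5:9725303-9725602 for Grm3 (minus strand), chr6:110645348-110645647 for Grm7 (plus strand) and chr6:28135097-28135396 for Grm8 (minus strand), and each reads 5′ to 3′ on the strand of the gene. The table holds 2 windows for Grm7 and 3 for Grm8, and of these the window with the highest share of G and C is shown. Capitals mark the GC box GGGCGG, searched on both strands with overlaps allowed.
Grm2: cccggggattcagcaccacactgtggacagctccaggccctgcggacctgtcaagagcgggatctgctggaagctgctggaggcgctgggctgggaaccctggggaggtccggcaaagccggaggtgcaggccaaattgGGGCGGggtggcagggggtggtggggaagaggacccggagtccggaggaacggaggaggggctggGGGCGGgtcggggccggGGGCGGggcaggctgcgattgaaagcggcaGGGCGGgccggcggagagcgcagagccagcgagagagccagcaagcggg
Grm3: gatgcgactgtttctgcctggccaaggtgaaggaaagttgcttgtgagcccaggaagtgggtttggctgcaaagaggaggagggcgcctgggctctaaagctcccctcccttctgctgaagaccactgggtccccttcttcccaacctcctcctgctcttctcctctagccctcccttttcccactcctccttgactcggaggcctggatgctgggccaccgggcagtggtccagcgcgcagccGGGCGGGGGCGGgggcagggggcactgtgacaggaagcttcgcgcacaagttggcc
Grm7: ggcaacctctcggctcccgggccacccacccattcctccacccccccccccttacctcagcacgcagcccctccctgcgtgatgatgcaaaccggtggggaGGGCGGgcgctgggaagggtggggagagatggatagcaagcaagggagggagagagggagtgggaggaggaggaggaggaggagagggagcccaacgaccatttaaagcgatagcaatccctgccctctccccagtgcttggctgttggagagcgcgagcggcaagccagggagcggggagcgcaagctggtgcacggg
Grm8: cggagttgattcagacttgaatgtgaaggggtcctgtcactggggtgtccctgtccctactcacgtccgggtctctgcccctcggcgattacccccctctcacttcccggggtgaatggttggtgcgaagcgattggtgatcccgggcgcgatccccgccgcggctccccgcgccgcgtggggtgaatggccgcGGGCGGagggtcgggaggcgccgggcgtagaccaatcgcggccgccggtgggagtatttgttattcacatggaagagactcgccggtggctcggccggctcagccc
The Grm2 window held 4 GC boxes, the Grm3 window 2, and the Grm7 and Grm8 windows shown 1 each, where 35.7% of the 32851 RefSeq promoter windows held at least 1. The letters TATAAA, present in 13.6% of all windows, and the cyclic AMP response element TGACGTCA, present in 1.79%, were in none of the 7 windows of these genes. G and C made up 72.0% of the Grm2 window, 63.7% of the Grm3 window, 66.7% of the Grm7 window shown and 67.0% of the Grm8 window shown, against a median of 52.7% over all windows. Of the windows not shown, the other one of Grm7 held 1 GC box at 61.0% G and C, and the other 2 of Grm8 held none at 43.3% and 54.0%.

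The 9 libraries held between 47332047 and 79964605 unique molecular identifiers (UMIs, each standing for 1 captured RNA molecule) in all. Of 77823 barcodes, 70234 were kept, with a median of 3024 to 5331 UMIs per nucleus across libraries, and 7 to 37 barcodes recurred between any pair of libraries. By group the median ran from 3798 to 5331 in young AAV-EGFP, 4066 to 4657 in aged AAV-EGFP and 3024 to 4320 in aged AAV-B3GNT3 mice. The part of this depth in the changes below was not tested. Clusters were named from marker genes, so each type name below stands for nuclei that resemble that type. Of the layer 5 extratelencephalic and layer 6 corticothalamic markers none was highest in its own type, so those names are the least sure. Although the tissue was labelled as cortex and hippocampus, 1777 nuclei carried markers of direct-pathway and 1859 of indirect-pathway striatal neurons, 10.1% to 22.0% and 9.85% to 23.8% of the inhibitory neurons of a library. The mouse gene B3gnt3 had 10, 0 and 6 UMIs in the brain endothelial cells of the young, aged AAV-EGFP and AAV-B3GNT3 mice, so this gene did not check the labels.

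Levels are given as CPM (counts scaled to the same total within each cell type), as the mean ± SD over all 9 mice, for 14 neuron types and 7 non-neuronal types. They describe types that were clustered from the same nuclei, without the Grm genes among the clustering genes, and were not tested. The 14 neuron types leave out 9783 neuronal nuclei that got no type name. They also leave out 238 CA3 and 224 subcortical glutamatergic nuclei, types with fewer than 10 nuclei in at least 1 library.  Grm5 was highest in the striatal and CA1 neurons, Grm2 in dentate granule and middle-layer cortical neurons, Grm3 and Grm7 in pericytes, Grm4 in the striatal neurons and Grm8 in near-projecting and layer 6 corticothalamic neurons.

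**Figure D1:**
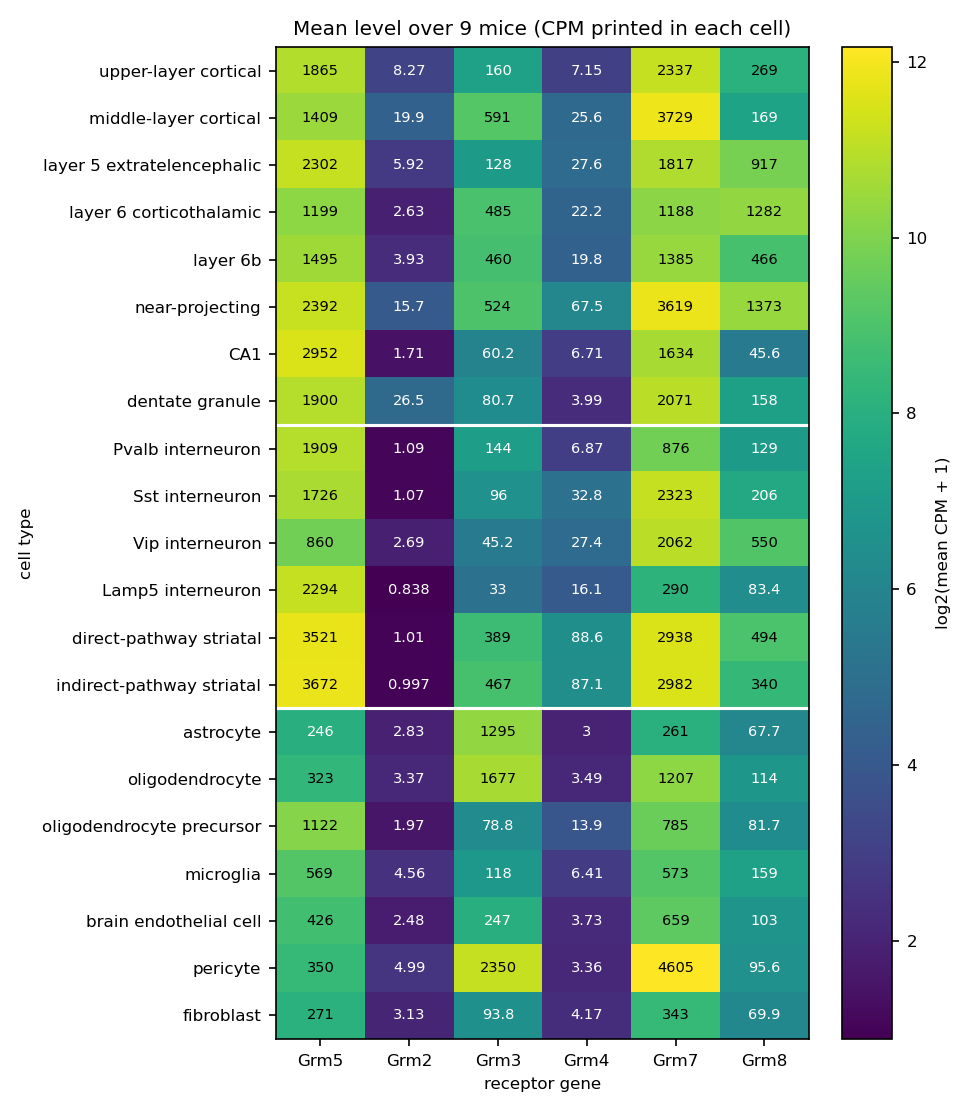
Heatmap of the mean level of the 6 receptor genes (columns) in 21 cell types (rows, with excitatory neuron types on top, then inhibitory types, then non-neuronal types). Colour gives log2(mean CPM + 1) over the 9 mice and the number in each cell is the mean CPM, from 0.838 for Grm2 in Lamp5 interneurons to 4605 for Grm7 in pericytes.

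Grm5 was measured in all 14 neuron types. Its level was 3672 ± 536 CPM in indirect-pathway and 3521 ± 522 CPM in direct-pathway striatal neurons, which did not separate in every mouse (higher in the former in 7 of 9). CA1 pyramidal neurons followed with 2952 ± 357 CPM, below the direct-pathway neurons in all 9 mice. The lowest neuronal level was 860.3 ± 112 CPM in Vip interneurons. Among glia, oligodendrocyte precursors stood out with 1122 ± 108 CPM, against 323 ± 132 CPM in oligodendrocytes and 246 ± 104 CPM in astrocytes.

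Grm2, the presynaptic autoreceptor of many glutamate terminals, had few counts. It reached 26.5 ± 9.98 CPM in dentate granule neurons, 19.9 ± 5.16 CPM in middle-layer cortical neurons and 15.7 ± 6.62 CPM in near-projecting neurons. The order of these types varied from mouse to mouse, since no type exceeded the next one in all 9 mice anywhere along the order. Grm2 had 0 UMIs in at least 1 library in 11 of the 21 types, and it passed the low-count filter in 4 of the 14 neuron types and 3 of the 7 classes.

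Grm3 had its 3 highest levels outside neurons. Pericytes, the contractile cells that wrap capillaries, held 2349.7 ± 623 CPM, oligodendrocytes 1677 ± 175 CPM and astrocytes 1295 ± 516 CPM. Neither neighbouring pair separated in all 9 mice (8 and 6 of 9). Among neurons, middle-layer cortical neurons had 591 ± 191 CPM, near-projecting neurons 524 ± 71.8 CPM and layer 6 corticothalamic neurons 485 ± 139 CPM. The lowest levels were 45.2 ± 15.03 CPM in Vip and 33.05 ± 10.2 CPM in Lamp5 interneurons.

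Grm4 was concentrated in the striatal types, with 88.6 ± 32.5 CPM in direct-pathway and 87.1 ± 34.97 CPM in indirect-pathway neurons, which did not differ beyond their spread. Near-projecting neurons followed with 67.5 ± 27.1 CPM and Sst interneurons with 32.8 ± 10.7 CPM. The lowest neuronal level was 3.99 ± 2.99 CPM in dentate granule neurons. Astrocytes had 2.997 ± 1.59 CPM and oligodendrocyte precursors 13.9 ± 6.93 CPM.

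Grm7, found at the active zone of many terminals, had a level of 4605 ± 471 CPM in pericytes, 3729 ± 375 CPM in middle-layer cortical and 3619 ± 387 CPM in near-projecting neurons. It was 876 ± 134 CPM in Pvalb and 290.1 ± 59.5 CPM in Lamp5 interneurons. Oligodendrocytes carried 1207 ± 183 CPM, against 261 ± 119 CPM in astrocytes.

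Grm8 was highest in deep-layer neurons. Near-projecting neurons had 1373 ± 145 CPM and layer 6 corticothalamic neurons 1282 ± 209 CPM, a pair that did not separate in all mice (7 of 9). Layer 5 extratelencephalic neurons had 917 ± 154 CPM, below the layer 6 corticothalamic neurons in all 9 mice. The lowest level of all was 45.6 ± 19.6 CPM in CA1 neurons.

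Because the genes differ in length, levels of different receptors were compared per length, as CPM per 100 kb of gene span. Such scaling assumes that counts rise with gene span, which was not tested, and whether intronic reads were counted is not given. On that scale Grm5 came first in excitatory neurons with 315 ± 39.4, ahead of Grm7 with 243 ± 16.4 and Grm3 with 123 ± 26.2, and Grm4 came last with 18.95 ± 6.5 (SD, n = 9). Inhibitory neurons kept Grm5 first with 436 ± 64.1 and Grm7 next with 218 ± 32.1. In astrocytes Grm3 came first with 540.3 ± 215, ahead of Grm5 with 44.8 ± 18.8, and in oligodendrocytes Grm3 had 699.8 ± 72.9 and Grm7 131 ± 19.8. In CPM without this scaling the order in excitatory neurons was another, with Grm7 above Grm5 and Grm2 below Grm4.

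Some of a neuronal transcript's level in glia can be free RNA caught in the droplet. A list of 7 neuron-specific genes (Slc17a7, Snap25, Syt1, Rbfox3, Camk2a, Nrgn and Meg3) served as its gauge, none of them at 0 in glia. In astrocytes the summed list stood at 15.5% to 17.6% of its neuronal level in young AAV-EGFP mice, 6.19% to 9.68% in aged AAV-EGFP mice and 11.2% to 15.1% in aged AAV-B3GNT3 mice. In oligodendrocytes the same 3 ranges were 19.8% to 21.3%, 8.97% to 13.7% and 15.6% to 21.7%. The aged AAV-EGFP libraries thus had the lowest levels of the list in both glial classes, with no overlap with the other groups. Over the 9 libraries the astrocyte levels of Grm5, Grm7 and Grm8, as a share of their neuronal levels, had a median ratio to the list of 1.04, 0.936 and 1.05. Other pairs lay above the list in all 9 libraries. The ratio for Grm3 was 42.2 in astrocytes, 42.2 in pericytes, 37.2 in oligodendrocytes, 4.74 in brain endothelial cells and 1.56 in microglia. In oligodendrocyte precursors it was 4.76 for Grm5, 3.73 for Grm4, 2.60 for Grm7, 2.13 for Grm3 and 1.18 for Grm8. Grm7 had 11.5 in pericytes and 2.94 in oligodendrocytes. Grm2 had 2.53 in astrocytes and 2.47 in oligodendrocytes, and Grm8 had 1.28 in oligodendrocytes. The Grm2 ratios rest on few counts, from 3 to 20 UMIs per library in astrocytes and from 7 to 32 in oligodendrocytes.

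**Figure D2:**
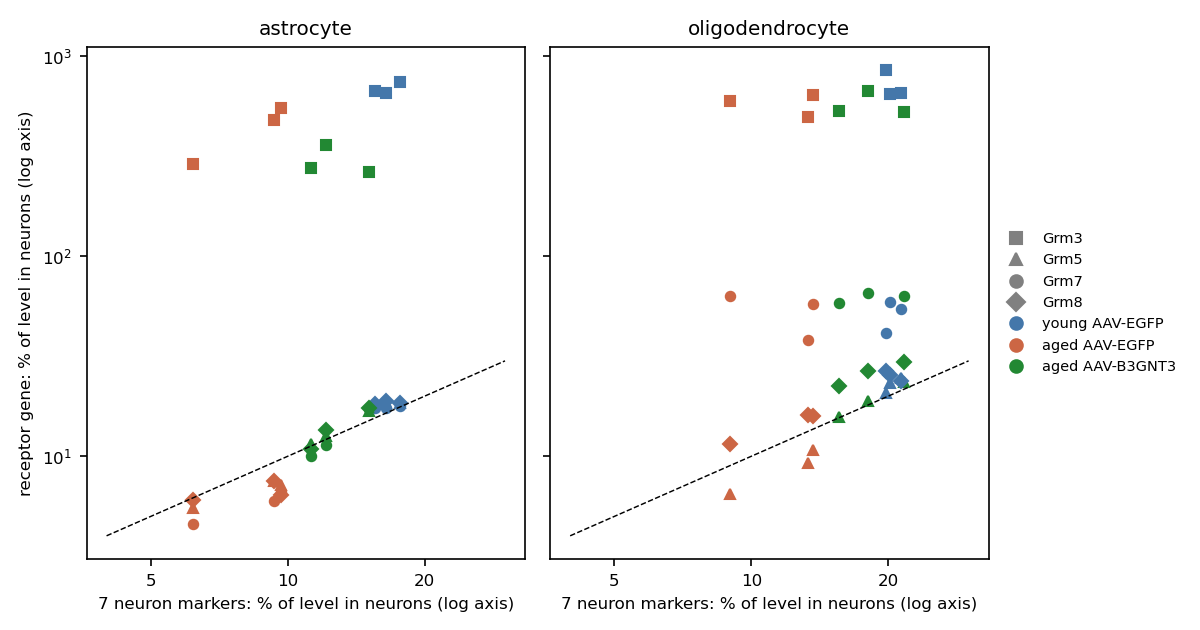
Level of Grm3, Grm5, Grm7 and Grm8 in astrocytes (left) and oligodendrocytes (right) as a percent of the level in neurons, against the same percent for the 7 neuron markers, with 1 point per gene and mouse on log axes. The dashed line marks equal percents. Grm5, Grm7 and Grm8 lie near the line in astrocytes, as does Grm5 in oligodendrocytes. In every mouse Grm8 in oligodendrocytes lies a little above the line, and Grm3 in both classes and Grm7 in oligodendrocytes lie further above it.

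Counts were summed per mouse within each of 7 classes and tested across all genes, with a call at an adjusted p under 0.05. In the ageing comparison 8 of 36 tested receptor and class pairs were called, 1 higher and 7 lower, and in the treatment comparison 4 of 36, 2 higher and 2 lower. Over all genes and the 7 classes, 9.83% were called in ageing (4.99% higher and 4.84% lower) and 2.96% in treatment (1.08% and 1.88%). The ageing calls fell on 3 of 5 receptors tested in astrocytes, where 12% of all genes were called, 3 of 6 in oligodendrocytes against 21%, and 2 of 6 in excitatory neurons against 14.4%. The treatment calls fell on 2 of 5 in astrocytes against 4.54% of all genes and 2 of 6 in excitatory neurons against 2.37%, with 0 of 6 in oligodendrocytes against 9.07%. No receptor was called in inhibitory neurons (3.32% and 0.0526% of all genes in ageing and treatment), oligodendrocyte precursors (5.61% and 1.73%), microglia (1.15% and 0.169%) or brain endothelial cells (0.022% and 0.11%). Over all 7 classes 13 ageing and 15 treatment pairs had an unadjusted p under 0.05 in edgeR, and DESeq2 called 9 pairs in each comparison. The 4 treatment calls rest on few mice, since 0 pairs were called without aged AAV-EGFP mouse 2 or without aged AAV-B3GNT3 mouse 2.

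**Figure D3:**
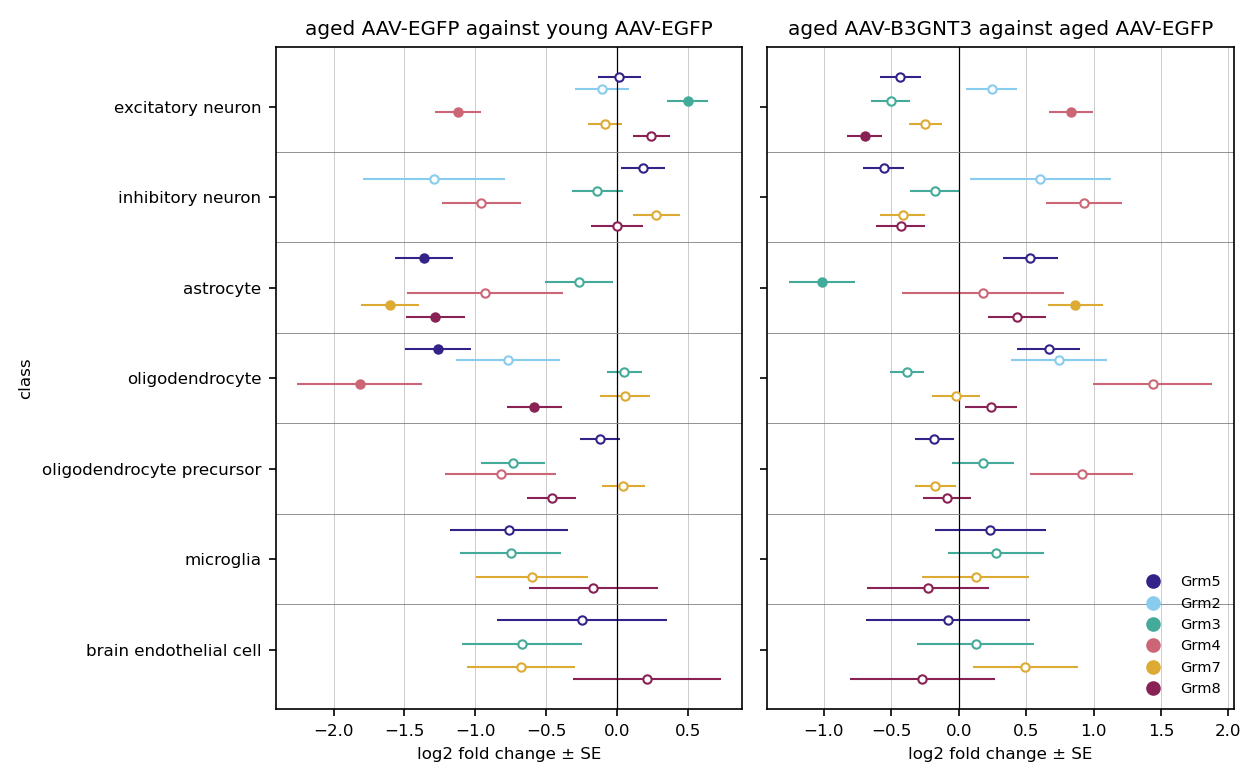
Log2 fold changes with their standard errors for the receptors in 7 classes, in the ageing (left) and treatment (right) comparison. Filled points passed the adjusted p of 0.05, open points did not, and a receptor too scarce to test in a class has no point. Grm4 lies left of 0 in ageing and right of 0 in treatment in every class where it was tested.

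Within neurons the sums were also tested for the 14 types, which cover only part of the neuronal nuclei. Most of the nuclei used also entered the class sums, so these are not independent of the class results. Of 73 receptor and type pairs tested of 84 possible, 4 were called in ageing (1 higher, 3 lower) and 7 in treatment (2 higher, 5 lower). Over all genes and the 14 types, 4.08% were called in ageing (1.95% higher and 2.14% lower) and 0.931% in treatment (0.291% and 0.641%). The share of all genes called was 12.5% in ageing and 2.62% in treatment for layer 6 corticothalamic neurons, 10.4% and 1.72% for middle-layer neurons, 1.96% and 0.271% for direct-pathway striatal neurons, 1.46% and 0.821% for CA1 and 2.56% and 1.3% for Pvalb interneurons. Unadjusted p-values under 0.05 in edgeR numbered 23 in ageing and 44 in treatment, and DESeq2 called 5 and 15 pairs. The 7 treatment calls became 0 without aged AAV-EGFP mouse 2, 0 without aged AAV-B3GNT3 mouse 1 and 1 without aged AAV-B3GNT3 mouse 2. Background subtraction and the fits without doublet removal or without the upper gene limit were not run for neuron types, so their calls were not checked against these.

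Grm4 was lower in neurons of aged than of young AAV-EGFP mice and higher in those of aged AAV-B3GNT3 mice. In excitatory neurons it measured 28.1, 20.99 and 21.7 CPM in the young AAV-EGFP mice, 12.5, 10.7 and 9.89 CPM in the aged AAV-EGFP mice and 22.7, 24.4 and 17.9 CPM in the aged AAV-B3GNT3 mice. All 3 aged AAV-EGFP mice lay below the 6 others. The log2 fold change was -1.12 ± 0.16 (SE, adjusted p = 0.00561) in ageing and 0.83 ± 0.16 (SE, adjusted p = 0.0366) in treatment. The ageing call held without any single mouse, with log2 fold changes from -1.23 to -0.99, whereas the treatment call was lost on leaving out any of 5 mice (young AAV-EGFP 3, aged AAV-EGFP 2 or 3, or aged AAV-B3GNT3 1 or 2), at adjusted p-values of up to 0.165. In the fit of only the 2 groups the treatment value was 0.83 (adjusted p = 0.0559). After background subtraction the values were -1.13 (adjusted p = 0.0082) and 0.85 (adjusted p = 0.0533).

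The same order appeared by neuron type. Layer 6 corticothalamic neurons had 30.1, 23.4 and 24.1 CPM in young AAV-EGFP, 15.3, 11.3 and 12.2 CPM in aged AAV-EGFP and 31.04, 28.3 and 23.7 CPM in aged AAV-B3GNT3 mice, counted from 31, 71 and 54 UMIs in the aged AAV-EGFP mice. The aged AAV-EGFP mice were again the lowest 3, with log2 fold changes of -1.05 ± 0.19 (SE, adjusted p = 0.00358) in ageing and 0.9996 ± 0.20 (SE, adjusted p = 0.0164) in treatment. Direct-pathway striatal neurons had 105, 87.7 and 92.9 CPM in young AAV-EGFP, 63.2, 43.9 and 47.6 CPM in aged AAV-EGFP and 126, 138 and 92.7 CPM in aged AAV-B3GNT3 mice, without overlap between aged AAV-EGFP and either other group. Their log2 fold changes were -0.88 ± 0.18 (SE, adjusted p = 0.0253) and 1.05 ± 0.18 (SE, adjusted p = 0.0192). In middle-layer cortical neurons the ageing change was -0.84 ± 0.23 (SE, adjusted p = 0.0255), although one aged value of 23.1 CPM exceeded the lowest young value of 21.98 CPM. Of these calls the ageing one in layer 6 corticothalamic neurons held without any single mouse, the ageing calls in direct-pathway and middle-layer neurons were lost without any of 5 and 4 mice, and both treatment calls were lost without aged AAV-EGFP mouse 2 or aged AAV-B3GNT3 mouse 1 or 2.

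Across the 13 neuron types in which Grm4 passed the low-count filter, its log2 fold change was below 0 in 13 of 13 in ageing, from -1.45 to -0.42, and above 0 in 13 of 13 in treatment, from 0.41 to 1.40. The types share the same 9 libraries, and of the genes tested in exactly 13 types 5.78% were below 0 in all of them in ageing and 5.61% above 0 in all of them in treatment. The groups did not overlap in 7 of the 13 types in ageing and in 10 of 13 in treatment, where 12.6% of all gene and type pairs did not overlap with the aged AAV-EGFP mice lower, and 16.8% with the aged AAV-B3GNT3 mice higher. Layer 6b neurons showed the largest differences, with 24.7, 27.5 and 21.4 CPM in young AAV-EGFP, 8.5, 7.55 and 10.4 CPM in aged AAV-EGFP and 32.01, 29.6 and 16.2 CPM in aged AAV-B3GNT3 mice, but at 596 nuclei in all neither comparison passed the test (adjusted p = 0.0579 and 0.105). Inhibitory neurons as a class gave -0.96 ± 0.28 (SE, adjusted p = 0.0769) in ageing and 0.93 ± 0.28 (SE, adjusted p = 0.151) in treatment, and the test of the difference between excitatory and inhibitory neurons called neither effect on Grm4 (log2 differences of 0.25 ± 0.24 and 0.08 ± 0.24).

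**Figure D4:**
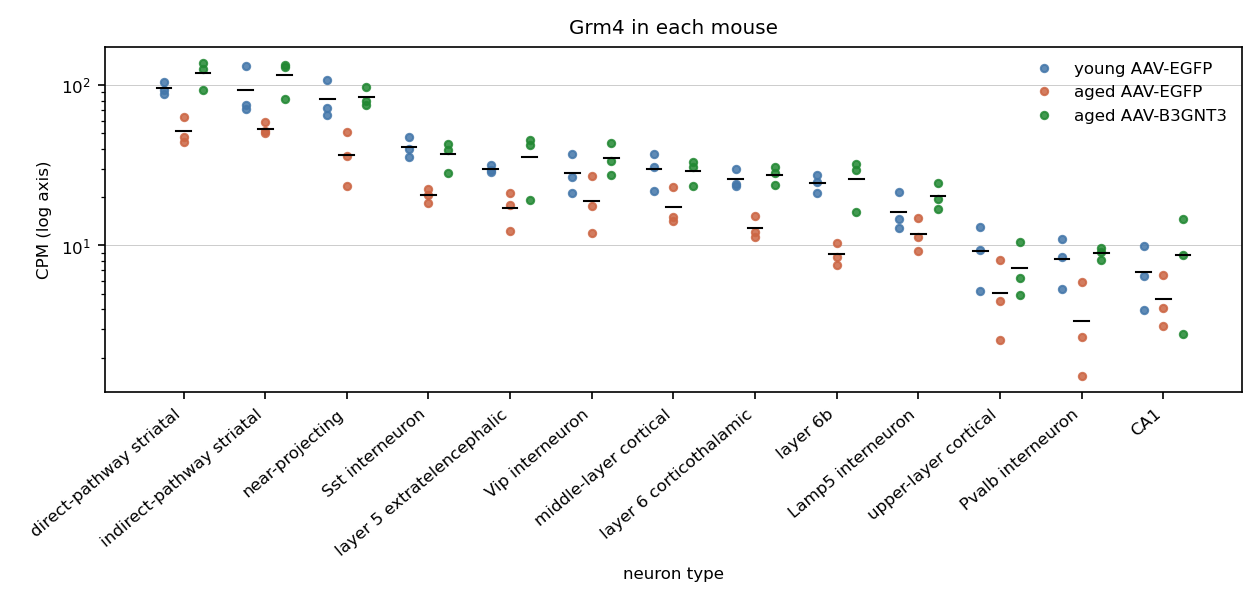
Grm4 level in CPM (log axis) in 13 neuron types, ordered by mean level, with 1 point per mouse and a black bar at the group mean. In layer 6 corticothalamic neurons the 3 aged AAV-EGFP mice lie between 11.3 and 15.3 CPM, below all 6 other mice.

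Oligodendrocyte markers were measured in the same excitatory neurons, and their part in the Grm4 result was not tested beyond the background subtraction above. Of the 5 genes on that list, 4 were below 0 in ageing (log2 fold changes from -0.81 to 0.01) and 4 above 0 in treatment (from -0.06 to 0.76), and the same 2, Mbp and Mobp, were called lower in ageing and higher in treatment. Mbp, a main protein of myelin, had log2 fold changes of -0.81 ± 0.15 (SE, adjusted p = 0.0099) in ageing and 0.70 ± 0.15 (SE, adjusted p = 0.0417) in treatment. Mobp, another myelin protein, had -0.70 ± 0.17 (SE, adjusted p = 0.022) and 0.76 ± 0.17 (SE, adjusted p = 0.0448). Mog and Mag, further myelin proteins, were called in neither comparison, at -0.42 and 0.01 in ageing and 0.59 and -0.06 in treatment. Grm4 itself stood at 3.49 ± 1.91 CPM in oligodendrocytes. The share of free RNA in excitatory neurons, as estimated from this list, was 16.2% to 17.8% in young AAV-EGFP mice. It was 8.29% to 11.9% in aged AAV-EGFP mice and 13.4% to 16.8% in aged AAV-B3GNT3 mice.

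Grm8 was lower in aged AAV-B3GNT3 than in aged AAV-EGFP excitatory neurons. In inhibitory neurons as a class its treatment change was not called, with a log2 ratio of mean CPM of -0.30. In excitatory neurons it measured 687, 762 and 627 CPM in the aged AAV-EGFP mice and 467, 462 and 483 CPM in the aged AAV-B3GNT3 mice, after 527, 611 and 583 CPM in the young AAV-EGFP mice. The treated mice lay below both other groups. The treatment log2 fold change was -0.70 ± 0.13 (SE, adjusted p = 0.033) and the ageing change 0.24 ± 0.13 (SE, adjusted p = 0.218). The treatment call was lost without any of 4 mice (young AAV-EGFP 3, aged AAV-EGFP 2, aged AAV-B3GNT3 1 or 2) and after background subtraction, where it was -0.66 (adjusted p = 0.0533), and in the fit of only the 2 groups, where it was -0.70 (adjusted p = 0.0514).

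By type, Grm8 in layer 6 corticothalamic neurons was 1574, 1599 and 1416 CPM in aged AAV-EGFP and 1056, 1019.9 and 1166 CPM in aged AAV-B3GNT3 mice, with a log2 fold change of -0.65 ± 0.12 (SE, adjusted p = 0.0155). Pvalb interneurons, the fast-spiking basket and chandelier cells, had 211, 163 and 152 CPM in aged AAV-EGFP and 42.1, 113 and 110.4 CPM in aged AAV-B3GNT3 mice, a change of -1.09 ± 0.24 (SE, adjusted p = 0.0345). The aged AAV-B3GNT3 mouse 1 was the lowest there, and without it the change was -0.77 (adjusted p = 0.0924). CA1 neurons had 47.4, 42.8 and 78.9 CPM in aged AAV-EGFP and 23.2, 36.6 and 21.5 CPM in aged AAV-B3GNT3 mice. The change there was -1.23 ± 0.27 (SE, adjusted p = 0.0341). Grm8 was scarcer in CA1 neurons than in any other type, glia included. The part of free RNA in the CA1 levels and in their change was not tested. The aged AAV-EGFP and aged AAV-B3GNT3 mice did not overlap in these 3 types, among 5 of all 14 without overlap for Grm8, where the aged AAV-B3GNT3 mice lay wholly lower for 4.99% of all gene and type pairs. Each of the 3 calls was lost without aged AAV-EGFP mouse 2 or aged AAV-B3GNT3 mouse 1. The call in Pvalb interneurons was also lost with DESeq2, at -1.11 (adjusted p = 0.087).

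The other long receptors, Grm5 and Grm7, were each called in 1 of 14 neuron types in treatment. Grm5 fell in middle-layer cortical neurons, from 1635, 1576 and 1401 CPM in aged AAV-EGFP to 1244, 1125 and 1279 CPM in aged AAV-B3GNT3 mice, by a log2 fold change of -0.49 ± 0.12 (SE, adjusted p = 0.0494). This call was lost on leaving out any of 6 of the 9 mice, with RLE size factors, with the replicate block and in the fit of only 2 groups. Grm7 fell in Pvalb interneurons, from 984, 1081 and 1061 to 716, 814 and 810.5 CPM, by -0.55 ± 0.12 (SE, adjusted p = 0.0345), and the young AAV-EGFP mice had 739, 825 and 857 CPM. That call was lost without aged AAV-EGFP mouse 2, aged AAV-B3GNT3 mouse 1 or aged AAV-B3GNT3 mouse 2.

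Over all 14 neuron types the treatment log2 fold change was below 0 in 14 of 14 for Grm5 (from -0.61 to -0.28), Grm7 (from -0.55 to -0.07) and Grm8 (from -1.23 to -0.24), although on the CPM scale Grm7 was above 0 in Vip and layer 6 corticothalamic neurons. Of the genes tested in all 14 types, 10.1% were below 0 in all of them. The aged AAV-B3GNT3 mice lay wholly below the aged AAV-EGFP mice in 10 of 14 types for Grm5, 8 for Grm7 and 5 for Grm8, where this held for 4.99% of all gene and type pairs. Genes of 500 kb or more are a class that holds these 3 receptors. Their median treatment log2 fold change was -0.27 over 233 genes in excitatory neurons, with 87.6% below 0, and -0.29 over 231 genes in inhibitory neurons. Over the 14 neuron types that median ran from -0.31 to -0.22, against 0.00323 to 0.0457 for genes of 50 to 500 kb, the class of Grm3 and Grm4. In ageing the medians of the longest genes ran from 0.00362 to 0.124. The part of gene length in the changes of Grm5, Grm7 and Grm8 was not tested.

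**Figure D5:**
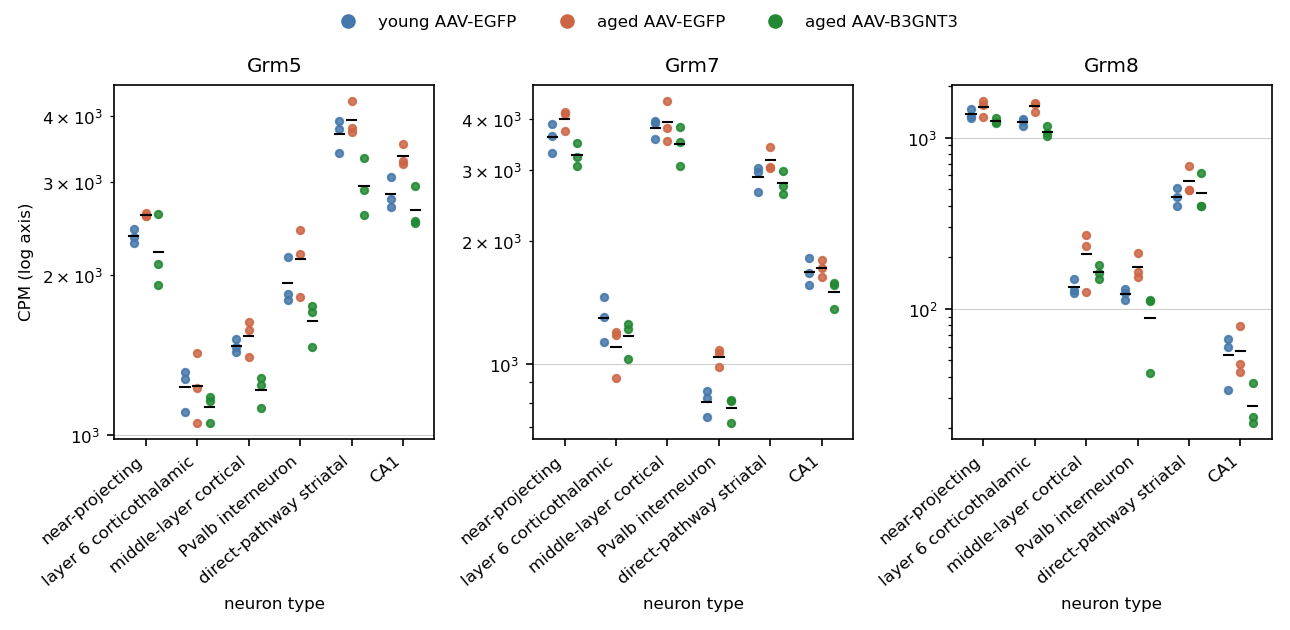
Levels in CPM (log axes) of Grm5, Grm7 and Grm8 in 6 neuron types, with 1 point per mouse and a black bar at the group mean. The aged AAV-B3GNT3 mice lie wholly below the aged AAV-EGFP mice for Grm8 in layer 6 corticothalamic, Pvalb and CA1 neurons and for Grm7 in Pvalb interneurons.

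In ageing neither Grm5, Grm7 nor Grm8 was called in any neuron type. Grm5 in excitatory neurons gave 0.02 ± 0.15 (SE, adjusted p = 0.945), with 1721, 1936 and 1768 CPM in young and 2023, 1990.3 and 1581 CPM in aged AAV-EGFP mice, which overlapped. Grm7 there gave -0.08 ± 0.12 (SE, adjusted p = 0.668). Closest to the threshold was Grm7 in Pvalb interneurons, at 0.43 ± 0.12 (SE, adjusted p = 0.0566), with all 3 aged AAV-EGFP mice above the 3 young ones.

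Grm3 rose with age in excitatory neurons. It measured 267, 262 and 218 CPM in the young AAV-EGFP, 436, 318 and 325 CPM in the aged AAV-EGFP and 314, 262 and 261 CPM in the aged AAV-B3GNT3 mice. The ageing groups did not overlap, and aged AAV-EGFP mouse 1 stood highest. The log2 fold change was 0.50 ± 0.15 (SE, adjusted p = 0.0407) in ageing and -0.50 ± 0.15 (SE, adjusted p = 0.0774) in treatment. The ageing call was lost without any of the 3 young mice or aged AAV-EGFP mouse 1 or 2, and without aged AAV-EGFP mouse 1 the change was 0.32 (adjusted p = 0.0919). It was also lost in the fit of only the 2 groups, at 0.50 (adjusted p = 0.0526).

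The one ageing change of Grm3 called in a neuron type was a rise in middle-layer cortical neurons, with 457, 472 and 394 CPM in young and 1058, 590.4 and 618 CPM in aged AAV-EGFP mice, a log2 fold change of 0.78 ± 0.18 (SE, adjusted p = 0.0124). Aged AAV-EGFP mouse 1 again stood apart at the top, and without it the change was 0.45 (adjusted p = 0.021). Among the alternatives run for neuron types, the call was lost only without young AAV-EGFP mouse 3, at 0.71 (adjusted p = 0.068). Upper-layer neurons had 135, 162 and 134 CPM in young and 318, 117 and 127 CPM in aged AAV-EGFP mice, where the same mouse was far above the other 2 and the difference did not pass (0.34 ± 0.27 SE, adjusted p = 0.434). Vip interneurons and direct-pathway striatal neurons had log2 fold changes below 0 in ageing, at -0.79 ± 0.24 (SE, adjusted p = 0.145) and -0.49 ± 0.17 (SE, adjusted p = 0.129), and the ageing effect on Grm3 differed between inhibitory and excitatory neurons by -0.60 ± 0.16 on the log2 scale, which did not pass the test (adjusted p = 0.228).

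In astrocytes, where Grm3 senses glutamate outside the synapse, it fell in treatment. Young AAV-EGFP mice had 1736, 1792 and 1555 CPM, aged AAV-EGFP mice 2052, 1353 and 853 CPM and aged AAV-B3GNT3 mice 775, 656 and 881 CPM. The aged AAV-EGFP mice ran from below one treated mouse to above every young mouse, so the treatment groups overlapped. The treatment log2 fold change was -1.02 ± 0.24 (SE, adjusted p = 0.0319) and the ageing change -0.27 ± 0.24 (SE, adjusted p = 0.5). Without aged AAV-EGFP mouse 1 the treatment change was -0.66 (adjusted p = 0.0623) and without aged AAV-EGFP mouse 2 -1.02 (adjusted p = 0.0977). Without aged AAV-B3GNT3 mouse 1 or 2 it was -1.005 (adjusted p = 0.103) and -0.92 (adjusted p = 0.168). The call was also lost with background subtraction, at -1.01 (adjusted p = 0.0904), without doublet removal, at -0.94 (adjusted p = 0.0694), and in the fit of only the 2 groups, at -1.02 (adjusted p = 0.0586).

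Grm3 in oligodendrocytes stayed within 1672 to 1852 CPM in all 6 AAV-EGFP mice and measured 1488, 1310.3 and 1651 CPM in the aged AAV-B3GNT3 mice. The treated mice lay below the others, but the treatment change of -0.38 ± 0.12 (SE, adjusted p = 0.07) did not pass. In pericytes, which were not among the 7 classes tested, Grm3 was 2717, 2114 and 3047 CPM in young AAV-EGFP, 3511, 1818 and 1556 CPM in aged AAV-EGFP and 2047, 2235 and 2102 CPM in aged AAV-B3GNT3 mice. These ranges overlapped, as did those of pericyte Grm7, at 5131, 3887 and 4187 CPM in young AAV-EGFP, 4829, 4774 and 4999 CPM in aged AAV-EGFP and 4631, 5031 and 3978 CPM in aged AAV-B3GNT3 mice.

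Grm5, Grm7 and Grm8 were all lower in astrocytes of aged than of young AAV-EGFP mice, at about the share of the neuronal level that the neuron-specific list had. Grm7 measured 358, 419 and 397 CPM in young AAV-EGFP, 157, 135 and 101 CPM in aged AAV-EGFP and 207, 333 and 239 CPM in aged AAV-B3GNT3 mice, with log2 fold changes of -1.60 ± 0.21 (SE, adjusted p = 0.000621) in ageing and 0.86 ± 0.20 (SE, adjusted p = 0.0302) in treatment. Grm5 followed with 342, 413 and 346 CPM in young AAV-EGFP, 163, 164 and 107 CPM in aged AAV-EGFP and 181, 278 and 226 CPM in aged AAV-B3GNT3 mice, and -1.36 ± 0.20 (SE, adjusted p = 0.000974) in ageing. Grm8 had 93.1, 107 and 100.5 CPM in young AAV-EGFP, 41.1, 50.005 and 33.9 CPM in aged AAV-EGFP and 44.4, 76.1 and 63.3 CPM in aged AAV-B3GNT3 mice, and -1.28 ± 0.21 (SE, adjusted p = 0.00156) in ageing. The young and aged AAV-EGFP mice did not overlap for any of the 3, where 15.4% of all genes in astrocytes did not overlap with the aged mice lower. Of the 7 neuron markers, 4 were called lower and 1 higher in the same astrocytes in ageing, with a median log2 fold change of -0.75, and in treatment 1 was called lower and 1 higher. Without doublet removal the ageing changes were -0.73 (adjusted p = 0.0884) for Grm5, -0.58 (adjusted p = 0.165) for Grm7 and -0.41 (adjusted p = 0.375) for Grm8, and the treatment change of Grm7 became -0.23 (adjusted p = 0.684). The treatment call of Grm7 was lost without aged AAV-EGFP mouse 2 or 3 or aged AAV-B3GNT3 mouse 2, and in the fit of only the 2 groups, at 0.86 (adjusted p = 0.0529). Background subtraction, which counts every UMI of the neuron-specific list as free RNA and removes the other genes in the proportions of the whole library, left few UMIs of these 3 receptors. In the young AAV-EGFP astrocytes Grm5 kept 425 of 4242 UMIs, Grm7 36 of 4481 and Grm8 119 of 1148, and in the aged AAV-EGFP astrocytes 0 of 906, 0 of 819 and 0 of 264. After it the ageing call of Grm8 was lost (adjusted p = 0.068), that of Grm5 held (adjusted p = 0.0269) and Grm7 no longer passed the low-count filter. With the aged mice at 0, these fits give no usable fold change. Genes of 500 kb or more had median ageing changes of -0.53 in astrocytes and -0.77 in oligodendrocytes. The part of gene length in these glial differences was not tested.

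In oligodendrocytes Grm5 measured 429, 553 and 390.04 CPM in young AAV-EGFP, 209, 234 and 125 CPM in aged AAV-EGFP and 247, 388 and 336 CPM in aged AAV-B3GNT3 mice, a change of -1.26 ± 0.23 (SE, adjusted p = 0.00409) in ageing. Grm8 changed by -0.58 ± 0.19 (SE, adjusted p = 0.0473), from 131, 134 and 145 to 103, 106 and 64.3 CPM, a call lost without any of the 3 young mice, aged AAV-EGFP mouse 3 or aged AAV-B3GNT3 mouse 3. It was also lost after background subtraction, at -1.04 (adjusted p = 0.0577), without doublet removal, at -0.47 (adjusted p = 0.126), and in the fit of only the 2 groups, at -0.58 (adjusted p = 0.0565). Grm4 changed by -1.82 ± 0.44 (SE, adjusted p = 0.0131) at the edge of detection, from 5.71, 4.9997 and 4.21 to 2.11, 0.906 and 1.3 CPM, a call lost without aged AAV-EGFP mouse 2 or 3. Background subtraction left 291, 293 and 58 UMIs of Grm5 in the young mice, from 2478, 2435 and 1390, and 0 in each aged AAV-EGFP mouse, from 793, 1035 and 670. With the aged mice at 0, the edgeR fit (adjusted p = 0.0165) gives no usable fold change. The subtraction left 0 UMIs of Grm4 in all 6 of these mice, so that Grm4 no longer passed the filter, and 9516 of 16163 UMIs of Grm7 in the young mice. Beside these, 3 of the 7 neuron markers were called lower and 1 higher in ageing in oligodendrocytes, with a median of -0.64. Grm7, which stood above the gauge there, gave 0.06 ± 0.18 (SE, adjusted p = 0.832) in ageing, at 1224, 1320.1 and 919.5 CPM in young and 898, 1302 and 1395 CPM in aged AAV-EGFP mice.

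The direct test of whether effects differ between classes covered 36 receptor and class-pair differences, of which 6 were called. Between excitatory neurons and oligodendrocytes 9.88% and 5.37% of all genes were called in ageing and treatment. Between astrocytes and oligodendrocytes these shares were 5.07% and 1.9%. The ageing effect on Grm5 in oligodendrocytes minus that in excitatory neurons was -1.31 ± 0.16 on the log2 scale (SE, adjusted p = 0.000149). These differences were fitted on the counts without background subtraction. The ageing effect on Grm7 was higher in oligodendrocytes than in astrocytes by 1.68 ± 0.28 (adjusted p = 0.00216). No difference between excitatory and inhibitory neurons was called for any of the 6 receptors in edgeR (0.0296% of all genes in ageing and 0% in treatment), with 3 of 12 at an unadjusted p under 0.05 (Grm2, Grm3 and Grm7 in ageing), and this difference was fitted with no other tool.

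Brain endothelial cells, the cells the vector was built for, had 4 receptors above the low-count filter. Their ageing log2 fold changes were -0.67 ± 0.42 for Grm3, -0.25 ± 0.60 for Grm5, -0.68 ± 0.38 for Grm7 and 0.21 ± 0.52 for Grm8 (SE). In treatment the same 4 gave 0.13 ± 0.44, -0.08 ± 0.61, 0.49 ± 0.39 and -0.27 ± 0.54. With 46 to 114 nuclei per mouse, no change passed, and the standard errors ran from 0.38 to 0.61. Oligodendrocyte precursors, which carried Grm5 above the gauge, gave -0.12 ± 0.14 (SE, adjusted p = 0.695) in ageing and -0.18 ± 0.14 (SE, adjusted p = 0.605) in treatment for it, with levels of 950.5 to 1259 CPM in the 9 mice.

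Grm2 passed no test. In dentate granule neurons, which give rise to the mossy fibres where Grm2 acts, it measured 19.6, 20.8 and 36.8 CPM in young AAV-EGFP, 23.4, 10.7 and 27.1 CPM in aged AAV-EGFP and 45.1, 27.96 and 27.3 CPM in aged AAV-B3GNT3 mice. The treated mice lay just above the aged AAV-EGFP mice, at 0.53 ± 0.34 (SE, adjusted p = 0.635), and the ageing change was -0.43 ± 0.34 (SE, adjusted p = 0.577). Middle-layer cortical neurons had 17.7, 9.89 and 16.5 CPM in young and 24.5, 16.9 and 26.2 CPM in aged AAV-EGFP mice, a change of 0.59 ± 0.21 (SE, adjusted p = 0.086) with overlapping groups.

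The levels above are CPM without further scaling, while fold changes used TMM scaling, and the 2 scales differ in treatment. The median gene's log2 ratio of mean CPM lay between 0.14 and 0.20 in treatment over the neuron types, and between -0.07 and 0.06 in ageing. Every called receptor change had the same sign on both scales. Over the 14 neuron types the log2 ratio of mean CPM in treatment was still above 0 in 13 of 13 for Grm4 and below 0 in 14 of 14 for Grm5, 12 of 14 for Grm7 and 14 of 14 for Grm8.

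The proteins around the receptors were followed in 7 lists with 56 genes, among them Homer and postsynaptic scaffolds, group I signalling, group II and III signalling, the trans-synaptic partners Elfn1 and Elfn2, glutamate uptake and supply, and the enzymes of the peptide transmitter NAAG, an agonist of Grm3. In excitatory neurons 0 of 55 tested genes rose and 12 fell with age, where of all genes 7.62% rose and 6.75% fell. The list had a median log2 fold change of -0.20 beside 0.02 over all genes. In the same nuclei 2 of the 5 oligodendrocyte markers above were called lower in ageing and none higher, and their part in the fall of the list was not tested beyond the alternatives given for the named genes. Both trans-synaptic partners were among the 12 that fell, and Elfn1, a postsynaptic adhesion protein that recruits Grm7 to terminals on interneurons, had 4.36, 6.63 and 5.08 CPM in young and 2.85, 2.43 and 1.26 CPM in aged AAV-EGFP mice (-1.32 ± 0.36 SE, adjusted p = 0.0324). Slc1a3, the glutamate transporter of astrocytes, gave -1.05 ± 0.27 (SE, adjusted p = 0.0276) there. Both calls were lost without any of 4 mice, that of Elfn1 also after background subtraction and that of Slc1a3 also without doublet removal or without the upper gene limit, and Slc1a3 did not pass the low-count filter after background subtraction. The fallen genes also held 3 of 11 scaffold genes, 3 of 9 uptake and supply genes and 2 of 4 NAAG genes.

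In treatment 2 of the 55 list genes rose and 1 fell in excitatory neurons, beside 0.87% and 1.5% of all genes. Elfn2, the related partner of group III receptors, rose from 19.4, 21.5 and 22.4 CPM in aged AAV-EGFP to 47.7, 46.2 and 31.6 CPM in aged AAV-B3GNT3 mice (0.85 ± 0.16 SE, adjusted p = 0.0336), and the groups did not overlap. Frmpd4, a scaffold that links Grm5 with Homer, fell from 1634, 1958 and 1849 to 1386, 1191 and 1433 CPM (-0.58 ± 0.13 SE, adjusted p = 0.0441). Each of these 2 calls was lost without any of 5 mice and after background subtraction, and that of Frmpd4 also in the fit of only the 2 groups and with the replicate block, at -0.57 (adjusted p = 0.0601). In inhibitory neurons 0 list genes rose and 1 fell with age (2.13% and 1.2% of all genes), Kcnj6, a subunit of the GIRK channels that Gi-coupled receptors open (-0.82 ± 0.19 SE, adjusted p = 0.0454). The call was lost without any of 8 of the 9 mice, after background subtraction, without the upper gene limit, in the fit of only the 2 groups and with the replicate block, at -0.84 (adjusted p = 0.078). Of the 5 oligodendrocyte markers 1 was called lower and none higher with age in inhibitory neurons. In the same neurons 0 of 55 were called in treatment in edgeR, with 14 at an unadjusted p under 0.05.

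In astrocytes 14 of 51 list genes fell and 0 rose with age, where 7.21% of all genes fell and 4.77% rose. In treatment 5 rose and 2 fell, where 1.88% of all genes rose and 2.66% fell. Kcnj6 gave -1.98 ± 0.26 (SE, adjusted p = 0.000684) in ageing. In treatment Kcnj6 gave 1.26 ± 0.28 (SE, adjusted p = 0.0246) and the scaffold gene Shank2 0.94 ± 0.19 (SE, adjusted p = 0.0204). Without doublet removal Kcnj6 gave -0.53 (adjusted p = 0.286) in ageing and 0.09 (adjusted p = 0.914) in treatment, and Shank2 0.36 (adjusted p = 0.406) in treatment, and after background subtraction neither passed the low-count filter. The treatment calls were also lost without any of 4 mice for Kcnj6 and any of 3 for Shank2, and that of Kcnj6 in the fit of only the 2 groups. The 2 genes that fell were on the list of group II and III signalling, as was Kcnj6, which rose. Rgs7, a brake on Gi and Go signalling, fell from 1145, 1146 and 705 to 501, 483 and 560.2 CPM (-1.09 ± 0.19 SE, adjusted p = 0.0137). Adcy2, an adenylyl cyclase, fell from 887, 864 and 736 to 622, 465 and 586 CPM (-0.71 ± 0.15 SE, adjusted p = 0.0238). Both of these calls were lost without aged AAV-EGFP mouse 2 or aged AAV-B3GNT3 mouse 2, and that of Adcy2 also without aged AAV-B3GNT3 mouse 1 and after background subtraction. The list medians were -0.31 in ageing and 0.11 in treatment, beside -0.00121 and 0.02 over all genes.

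In oligodendrocytes 20 of 52 list genes fell and 2 rose with age, where 10.1% of all genes fell and 11% rose. In treatment 9 rose and 1 fell, where 3.33% of all genes rose and 5.74% fell. Homer3 and Dgki, a diacylglycerol kinase, were the ones that rose with age (0.66 ± 0.18 SE, adjusted p = 0.0239 and 0.49 ± 0.14 SE, adjusted p = 0.0286), while Shank2 and Rgs7 fell most among genes with enough counts (-1.62 ± 0.30 SE, adjusted p = 0.00413 and -1.44 ± 0.20 SE, adjusted p = 0.00251). In treatment Shank2 and Shank3, the large postsynaptic scaffolds, rose by 1.33 ± 0.30 (SE, adjusted p = 0.0203) and 1.23 ± 0.23 (SE, adjusted p = 0.0105), and Prkca, a protein kinase C, fell (-0.51 ± 0.14 SE, adjusted p = 0.037). The ageing calls of Shank2 and Rgs7 held without any single mouse and in every alternative that gave a value, but after background subtraction neither passed the low-count filter. Those of Homer3 and Dgki were lost without any of 5 mice and after background subtraction, those of Shank2 and Shank3 in treatment without aged AAV-B3GNT3 mouse 2, that of Shank2 also without aged AAV-EGFP mouse 3, and that of Prkca without any of 5 mice, after background subtraction and without doublet removal. Shank2 and Shank3 did not pass the low-count filter after background subtraction in treatment either.

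Oligodendrocyte precursors had 1 rise, Slc1a3 (0.57 ± 0.16 SE, adjusted p = 0.0395), and 7 falls among 48 list genes in ageing, among them Elfn1 (-1.11 ± 0.32 SE, adjusted p = 0.0394), where 2.77% of all genes rose and 2.84% fell. Without aged AAV-EGFP mouse 1 the change of Elfn1 was -1.70 (adjusted p = 0.000199), whereas its call was lost without any of 5 other mice and that of Slc1a3 without any of 4. Both were lost after background subtraction, without doublet removal and without the upper gene limit, that of Elfn1 also with DESeq2 and that of Slc1a3 in the fit of only the 2 groups. There were 0 calls in treatment in edgeR with 4 at an unadjusted p under 0.05. Microglia had 1 fall of 41 in ageing, Adcy2 (-1.36 ± 0.25 SE, adjusted p = 0.0386), where 0.415% of all genes fell and 0.74% rose, and the call was lost without any of 7 mice and in the fit of only the 2 groups, with no value after background subtraction. Microglia had 0 calls in treatment, and brain endothelial cells 0 of 32 in either, where edgeR gave 5 list genes in microglia in treatment and 1 and 1 in brain endothelial cells in ageing and treatment at an unadjusted p under 0.05. The glial list genes include many neuronal transcripts. Of the 7 neuron markers above, 6 had ageing log2 fold changes below 0 in each of astrocytes, oligodendrocytes, oligodendrocyte precursors and microglia, with 4, 3, 3 and 0 called lower and 1, 1, 0 and 0 called higher, and medians of -0.75, -0.64, -0.64 and -0.43. In treatment 1 of the 7 was called higher and 1 lower in each of astrocytes and oligodendrocytes, 1 lower in oligodendrocyte precursors and none in microglia. The medians were 0.21 in astrocytes, 0.38 in oligodendrocytes, 0.39 in oligodendrocyte precursors and 0.10 in microglia. The part of these markers in the list counts was not tested beyond the alternatives given for the named genes.

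The genes whose levels over the 21 cell types were most like each receptor were found by the Pearson correlation of mean log2(CPM + 1) among 11097 genes, as a description over types that share the same libraries. Grm5 was most like Sptbn4 (r = 0.956) and Ksr2 (0.954). Grm2 was most like Nrn1 (0.865) and Prdm8 (0.809), and Grm3 like Arap2 (0.745) and Srebf2 (0.727). Of the group III genes, Grm4 was most like Hs3st5 (0.859) and Adcy3 (0.851), Grm7 like Begain (0.829) and Chn1 (0.775), and Grm8 like Slco4c1 (0.828) and Diras2 (0.801).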

How the data were processed

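Raw UMI counts per gene and nucleus were used as deposited by the authors, in 1 filtered matrix per library. The tissue was lysed to nuclei, sorted as Hoechst singlets and sequenced with a droplet 3′ kit. Cell Ranger 4.0.0 and mm10 are named in the submitters' notes, whereas the matrix headers name 7.2.0. Whether introns were counted and the strand setting are not given in the sources used here.

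The limits per nucleus were 200 to 5000 genes and a mitochondrial share of up to 10%, and simulated-neighbour scores marked 5.07% to 8.21% of barcodes per library as doublets. Of the marked barcodes, 4661 lay within the limits and were removed as doublets. Nuclei were clustered with Leiden (leidenalg 0.10.2, Python 3.11.15) on 2000 variable genes without the Grm genes, and clusters were named from markers with naming thresholds set after the clusters had been seen. Counts were summed per mouse and class or neuron type, in 9 samples grouped by the labels. edgeR 4.0.16 (quasi-likelihood test, TMM, filterByExpr with minimum count 10, R 4.3.3) was fitted on all genes with all 9 samples, with Benjamini-Hochberg adjustment within each class or type. Differences between classes were tested as interaction terms. The edgeR test was also run on simulated counts for excitatory neurons and astrocytes, with the same fixed spread for every gene. That simulation held no outlying mouse and no free RNA, so it cannot show how the test behaves with these. Alternatives were DESeq2 1.42.0, RLE size factors, no count filter, a replicate block, only 2 groups, no doublet removal, no upper gene limit, background subtraction, inhibitory neurons without striatal clusters and leaving out each mouse, and for levels the Grm genes kept among the variable genes and the mean of CPM per nucleus. Those with no doublet removal, no upper gene limit and background subtraction were run for the classes only. The labels do not say more of the replicates than that each is a separate sample, so p-values measure the spread between these samples.

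The members and gene lists were chosen with earlier results of these data known. Of the list genes, up to 2 rises and 2 falls per class and comparison with a mean count of at least 50 are named by largest change, except that some of them are not reported here. Where the symbol Pick1 occurred more than once its first entry was used.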

Additional observations from a re-analysis of the deposited data

Results flagged for a closer look

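The tests of whether an effect differs between classes singled out 6 results. Between excitatory neurons and oligodendrocytes the ageing effect differed by -1.31 for Grm5 and -0.85 for Grm8 on the log2 scale, lower in oligodendrocytes (edgeR adjusted p = 0.000149 and 0.00215). The treatment effect differed by 1.10 for Grm5 and 0.93 for Grm8, higher in oligodendrocytes (adjusted p = 0.00104 and 0.00211). Between astrocytes and oligodendrocytes the ageing effect differed by 1.68 for Grm7 and 0.70 for Grm8, higher in oligodendrocytes (adjusted p = 0.00216 and 0.00956). The ageing and treatment values share the aged AAV-EGFP mice. The summed level of the neuron-specific list in astrocytes and oligodendrocytes also differed between the same groups. How much of the level of that list was free RNA was not tested. Genes of 500 kb or more, the class of Grm5, Grm7 and Grm8, also differed between cell classes. Their median ageing changes were 0.03 in excitatory neurons, -0.53 in astrocytes and -0.77 in oligodendrocytes. In treatment the medians were -0.27, 0.12 and 0.39 in the same order. The parts of free RNA and of gene length in these differences were not tested.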

How the results depend on the processing

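The 8 ageing calls by class became 4 with background subtraction and 4 without doublet removal, and 6 to 11 when a mouse was left out. Of the 4 with background subtraction, those of Grm5 in astrocytes and in oligodendrocytes rest on aged AAV-EGFP mice at 0 UMIs. The 4 treatment calls by class became 9 with DESeq2, 9 with no filter on low counts, 1 with only the 2 groups, which was none of the 4, 0 with background subtraction, 2 without doublet removal and 0 to 5 when a mouse was left out. The 4 ageing calls by neuron type became 14 with no filter and 1 to 9 when a mouse was left out. The 7 treatment calls by neuron type became 15 with DESeq2, 22 with no filter and 0 to 15 when a mouse was left out. Without doublet removal the treatment changes in astrocytes reversed for Grm5 (-0.15) and Grm7 (-0.23). Grm3 in upper-layer neurons, not called in treatment, ran from -0.71 to 0.16 when a mouse was left out. The cause was not tested. The replicate block changed 3 of 218 calls, with counts of 9, 5, 4 and 6 in place of 8, 4, 4 and 7, and the numbers did not pair the samples (correlations of same-numbered samples from -0.26 to 0.26). Counts over all genes moved as widely, from 2428 to between 253 and 3677 in excitatory neurons, from 1514 to between 203 and 2289 in astrocytes and from 2785 to between 1309 and 3801 in oligodendrocytes in ageing, and in treatment from 401 to between 0 and 1472, from 574 to between 14 and 1314 and from 1201 to between 85 and 2230. Of the alternative levels, 246 stayed within 1 SD and 8 did not. Of the pathway genes named in the report, Shank2 and Rgs7 in oligodendrocytes in ageing kept their calls without any single mouse and in every alternative but background subtraction, which gave them no value, and every other one lost a call in at least one of them. With 3 mice a group, small differences may have gone undetected, and Grm4 in oligodendrocytes rested on 4 to 37 UMIs per mouse.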
